A study of Mus musculus with 3 samples.

Results

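The galectins are a family of small lectins, proteins that bind beta-galactose on the glycans of glycoproteins and glycolipids. The 8 galectin genes described here (Lgals1, Lgals2, Lgals3, Lgals4, Lgals7, Lgals8, Lgals9 and Lgals12) were picked by gene symbol among the 24028 Entrez gene identifiers of the deposited read count table, and all 8 were found. The libraries were made from skin papillomas, benign tumours of the epidermis, that had been raised in C57BL/6 mice with DMBA, a carcinogen that mutates keratinocytes, and TPA, a phorbol ester that promotes their outgrowth. Mice of every genotype had received both agents, and the labels used here give no age. The wild-type group kept its own galectin-7, the Lgals7-/- group lacked galectin-7, and the Tg46 group carried a galectin-7 transgene under the keratin 14 promoter, which is active in basal keratinocytes. Each genotype was represented by 1 library from 3 pooled tumours, so no ratio below has a replicate check and no p-value can be given. In such bulk samples, fewer cells of a type and less RNA per cell cannot be told apart.

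Galectins are grouped by the layout of their carbohydrate recognition domain. Galectin-1, galectin-2 and galectin-7 hold a single domain and act as dimers, galectin-3 joins 1 domain to a repetitive tail, and galectin-4, galectin-8, galectin-9 and galectin-12 carry a pair of different domains in tandem. Outside the cell they cross-link surface glycoproteins, and inside it they recognise glycans exposed on damaged vesicles and bind partners that carry no glycan. In skin, galectin-7 is a marker of stratified epithelium, galectin-3 is made by keratinocytes and macrophages, and galectin-1 by stromal and many other cells. Galectin-9 is induced by interferons in many cell types, galectin-2 and galectin-4 are best known from gut epithelium, and galectin-12 from adipocytes.

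The wild-type library held 172011 counts, Lgals7-/- 312600 and Tg46 354499, so 3 counts, the upper limit taken for a gene at 0, stood for 17.4, 9.11 and 8.95 CPM (counts per 1000000, on the edgeR TMM scale). Intervals and limits cover counting error only and take no account of PCR copies of the same molecule. They compare libraries, not genotypes. All 12 keratinocyte markers held counts in every library, and their sum was 816 CPM for wild-type, 1701 for Lgals7-/- and 2017 for Tg46. Summed over the libraries in that order, 7 fibroblast markers gave 417, 456 and 489 CPM (Lum at 0 in wild-type), 8 macrophage and monocyte markers 295, 380 and 343 (Cx3cr1 at 0 in wild-type), 5 endothelial markers 243, 188 and 200 (0 of them at 0), and 5 T cell markers 116, 161 and 152 (Cd4 at 0 in wild-type, Cd3g in Lgals7-/-). The 5 adipocyte markers gave 52.1, 103 and 140 CPM (Plin1 at 0 in wild-type), and 3 granulocyte markers (of 4, the other not found) gave 11.6, 79.0 and 41.8 (S100a8 at 0 in wild-type and Tg46, Csf3r in wild-type). The part of these differences in the galectin values was not tested.

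Genes that nearly every cell uses were themselves at very few counts, which limits what any level below can mean. In the order wild-type, Lgals7-/-, Tg46, Gapdh, a glycolytic enzyme gene, held 0, 5 and 4 counts, Actb, the beta-actin gene, 3, 13 and 13, and Ppia, a cyclophilin gene, 0, 5 and 3. Of 12 such genes looked up after the galectin values were known, Eef1a1, a translation elongation factor gene, held most, with 19, 20 and 27 counts. Genes with an exon that overlaps one on the opposite strand made up 24.4% of genes and 30.4% of exon bases, and held 40.0%, 40.9% and 46.6% of the counts. How reads were assigned to genes, strand included, is unknown here, and its part in the counts was not tested. A low count of a galectin gene is therefore no measure of low expression, and each galectin value below describes the deposited counts.

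The altered gene itself, Lgals7 (Entrez 16858, chromosome 7, 28863853 to 28866284, plus strand, GRCm38), was hardly covered. It held 0 wild-type counts, 2 Lgals7-/- counts and 4 Tg46 counts. The library labelled as lacking galectin-7 was thus not at 0, and the library with the intact gene was. The Tg46 to Lgals7-/- ratio of CPM was 1.77 (95% interval 0.282 to 21.7), and no fold is given against wild-type, where 4 counts in Tg46 do not exceed the level allowed by a count of 0. Neither the deletion nor the transgene could be seen in these counts, the part of depth and of the counting in this was not tested, and the sources used here do not say which part of the gene was removed. Krt14, whose promoter drives the transgene, held 20, 81 and 95 counts in the order wild-type, Lgals7-/-, Tg46, and its Tg46 to Lgals7-/- ratio was 1.15 (0.847 to 1.57). Krt14 was called higher in both comparisons with wild-type. On DESeq2 size factors those ratios were 2.03 (1.256 to 3.565) in Lgals7-/- and 2.29 (1.43 to 3.99) in Tg46. With 5 counts added the call in Lgals7-/- was lost.

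Among the members, Lgals9 had the ratio furthest from 1, in Lgals7-/- over wild-type. It was also the only member whose interval excluded 1 in both comparisons with wild-type. The gene (Entrez 16859, chromosome 11, 78962974 to 78984946, minus strand) encodes galectin-9, a tandem-repeat galectin that binds TIM-3, an inhibitory receptor on T cells. It held 17 wild-type counts, 1 Lgals7-/- count and 7 Tg46 counts, or 98.4, 3.04 and 20.9 CPM. Wild-type was the high library by a wide margin although it had the fewest counts in all. Relative to wild-type, Lgals9 was 22.2-fold lower in Lgals7-/- (95% interval 5.07 to 1354) and 4.53-fold lower in Tg46 (1.86 to 13.4). These comparisons share the wild-type library and are not independent. With 5 counts added to each library in place of 0.5, the ratio of Lgals7-/- to wild-type was 0.143 in place of 0.0450. Between Tg46 and Lgals7-/- the ratio was 4.91 (0.883 to 310), and its interval held 1. In Tg46 over wild-type, the ratios of Lgals2 (4.64) and Lgals12 (0.172) lay further from 1 than that of Lgals9. The interval of Lgals12 held 1.

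The start of Lgals9 is shown because this gene differed most between the libraries, and that of Lgals7 because it is the altered gene. Both windows run from 250 bases before to 50 bases after the start of the RefSeq gene (GRCm38.p6), at chr11:78984875-78985174 on the minus strand for Lgals9 and at chr7:28864136-28864435 on the plus strand for Lgals7. Capitals mark the core of the interferon-stimulated response element (GAAA, any 2 bases, GAAA), searched on both strands.
Lgals9: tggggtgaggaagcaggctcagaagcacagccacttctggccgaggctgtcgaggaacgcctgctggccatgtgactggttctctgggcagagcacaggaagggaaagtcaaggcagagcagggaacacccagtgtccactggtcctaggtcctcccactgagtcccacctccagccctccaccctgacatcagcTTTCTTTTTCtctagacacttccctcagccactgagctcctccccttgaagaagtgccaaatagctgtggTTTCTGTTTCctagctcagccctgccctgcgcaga
Lgals7: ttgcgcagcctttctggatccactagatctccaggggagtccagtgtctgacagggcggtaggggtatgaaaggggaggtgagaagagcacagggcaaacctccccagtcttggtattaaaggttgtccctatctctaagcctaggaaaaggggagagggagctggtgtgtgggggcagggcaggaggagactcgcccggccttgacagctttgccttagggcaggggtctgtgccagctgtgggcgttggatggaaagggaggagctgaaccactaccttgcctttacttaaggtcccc
The Lgals9 window held 2 matches, both read on the opposite strand, whose first printed bases lie at position -55 and at position 16 after the start, and the Lgals7 window held 0. Windows were found for 6 of the 8 galectins. In the other 5, none of this core, TGANTCA (the AP-1 site, also called the TPA response element) or TATAAA (the TATA box) was present on either strand. Among 32544 windows of the same length over all genes, 3.45% held the interferon core at least once and 0.221% held at least 2 matches, overlapping ones included, while 7.79% held TGANTCA and 13.6% TATAAA. A match is a description of these letters and not a binding site.

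**Figure D1:**
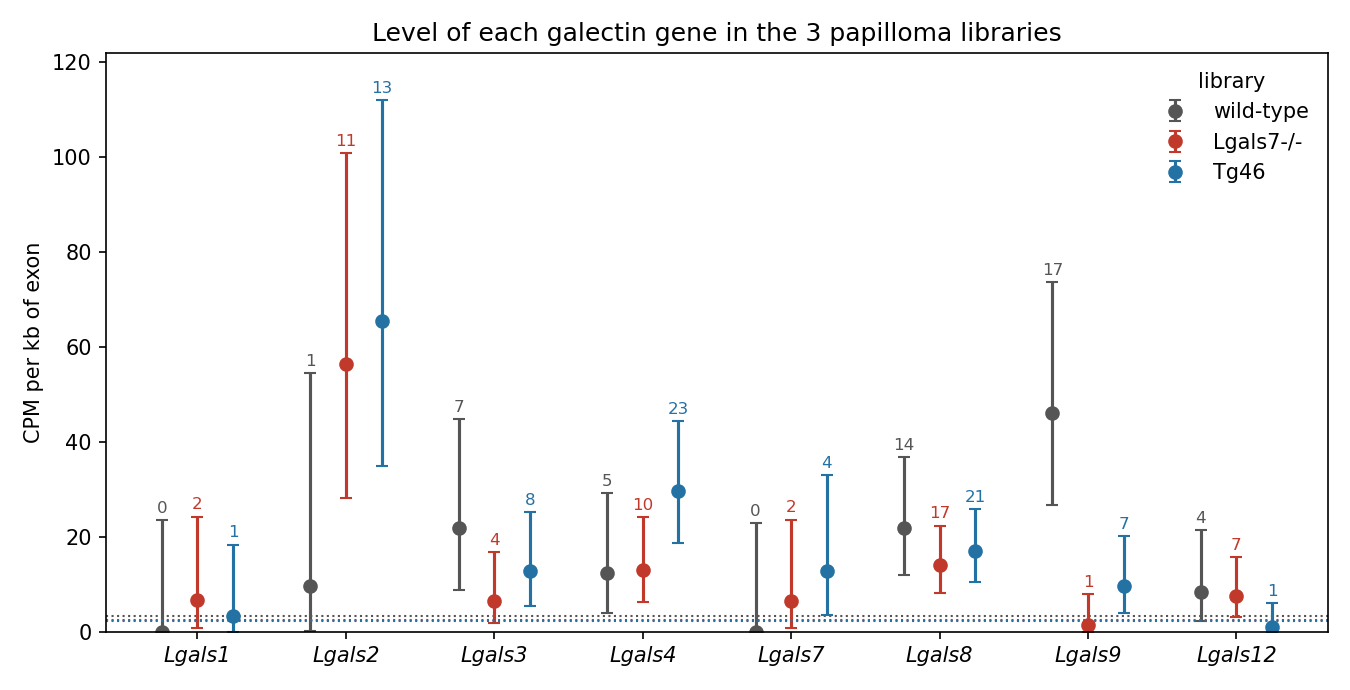
CPM per kb of exon (vertical axis) of the 8 galectin genes in the wild-type, Lgals7-/- and Tg46 libraries, with exact 95% Poisson intervals of the count as bars and the counts printed above them. Dotted lines give the level of the chemosensory receptor genes in each library. Lgals9 is high in wild-type at 17 counts and Lgals2 in the other libraries at 11 and 13, while Lgals1 and Lgals7 stay at 0 to 4 counts.

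Of the other single-domain galectins, Lgals2 passed 10 counts in Lgals7-/- and Tg46, and Lgals1 stayed at or under 2 in every library. Lgals2 (Entrez 107753, chromosome 15, 78850860 to 78855529, minus strand) held 1 wild-type count, 11 Lgals7-/- counts and 13 Tg46 counts. Wild-type was the low library here. The Tg46 to wild-type ratio was 4.64 (1.01 to 285) and the Lgals7-/- to wild-type ratio 4.02 (0.839 to 248.5), so the interval excluded 1 in Tg46 alone and by a small margin. On DESeq2 size factors or total counts the interval in Tg46 also held 1, and with 5 counts added its ratio was 1.55, so this call rests on the scaling and on the counts added. The ratio of Tg46 to Lgals7-/- was 1.15 (0.480 to 2.86). Exons of Lgals2 overlap those of Cdc42ep1 on the opposite strand by 38 bases, and Cdc42ep1 held 7, 4 and 5 counts in the order wild-type, Lgals7-/-, Tg46. Lgals1 (Entrez 16852, chromosome 15, 78926725 to 78930465, plus strand), which encodes the widely expressed galectin-1, held 0, 2 and 1 counts. All of these are at or under 3 counts, and no fold is given.

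Lgals3 (Entrez 16854, chromosome 14, 47367751 to 47386160, plus strand), the gene of the chimeric galectin-3, was also low. It held 7 wild-type counts, 4 Lgals7-/- counts and 8 Tg46 counts, or 40.5, 12.2 and 23.9 CPM. Its ratio to wild-type was 0.315 in Lgals7-/- (0.0644 to 1.18) and in Tg46 0.584 (0.187 to 1.91), and that of Tg46 to Lgals7-/- was 1.86 (0.526 to 8.91). Every one of these intervals held 1, so no difference in Lgals3 was detectable at this depth. Its secreted binding protein gene, Lgals3bp, held 2, 7 and 14 counts, and its Tg46 to wild-type ratio of 2.99 (0.829 to 32.7) was likewise within counting error.

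Among the tandem-repeat galectins other than Lgals9, Lgals4 stood highest in Tg46 and Lgals8 did not differ between libraries beyond counting error. Lgals4 (Entrez 16855, chromosome 7, 28833854 to 28841708, plus strand) lies beside Lgals7 at a distance of 22145 bases. It held 5 wild-type counts, 10 Lgals7-/- counts and 23 Tg46 counts. The ratio of Tg46 to Lgals7-/- was 2.20 (1.03 to 5.32), with an interval that excluded 1 by a small margin. With total counts in place of TMM scaling the ratio was 1.97, and with 5 counts added 1.83, both under 2-fold. Against wild-type the ratio was 2.20 in Tg46 (0.882 to 7.99) and 1.002 in Lgals7-/- (0.327 to 3.91). The nearest gene on the other side of Lgals7, Capn12, a calpain protease gene at 15138 bases, held 92, 226 and 434 counts, and its exons overlap those of Actn4 and Gm44700 on the opposite strand. Capn12 was called higher in Tg46 over wild-type, at a ratio of 2.42 (1.94 to 3.08).

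Lgals8 (Entrez 56048, chromosome 13, 12439415 to 12464944, minus strand), whose product marks damaged endosomes for autophagy, had the most counts of the family over all libraries, 52 in sum. It held 14 wild-type counts, 17 Lgals7-/- counts and 21 Tg46 counts. The ratio to wild-type was 0.633 in Lgals7-/- (0.296 to 1.397) and 0.764 in Tg46 (0.375 to 1.64), and that of Tg46 to Lgals7-/- was 1.21 (0.610 to 2.45). Its exons overlap those of Heatr1, a ribosome biogenesis gene, by 155 bases on the opposite strand. Heatr1 held 51, 42 and 95 counts, and its ratio of Tg46 to Lgals7-/- was 2.21 (1.53 to 3.28), or 1.98 with total counts. The sources used here do not say whether strand entered the counting, so reads in the shared stretches of Lgals8 and Heatr1, or of Lgals2 and Cdc42ep1, cannot be told apart.

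Lgals12 (Entrez 56072, chromosome 19, 7596660 to 7607193, minus strand) held 4 wild-type counts, 7 Lgals7-/- counts and 1 Tg46 count. Tg46 was the low library, at a ratio of 0.172 to wild-type (0.00262 to 1.30) and of 0.196 to Lgals7-/- (0.00311 to 1.09). Both intervals held 1. The adipocyte markers, summed, held 34 counts in Lgals7-/- and 47 in Tg46, or 103 and 140 CPM, and no interval was computed for these sums. Any relation of Lgals12 to them was not tested.

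**Figure D2:**
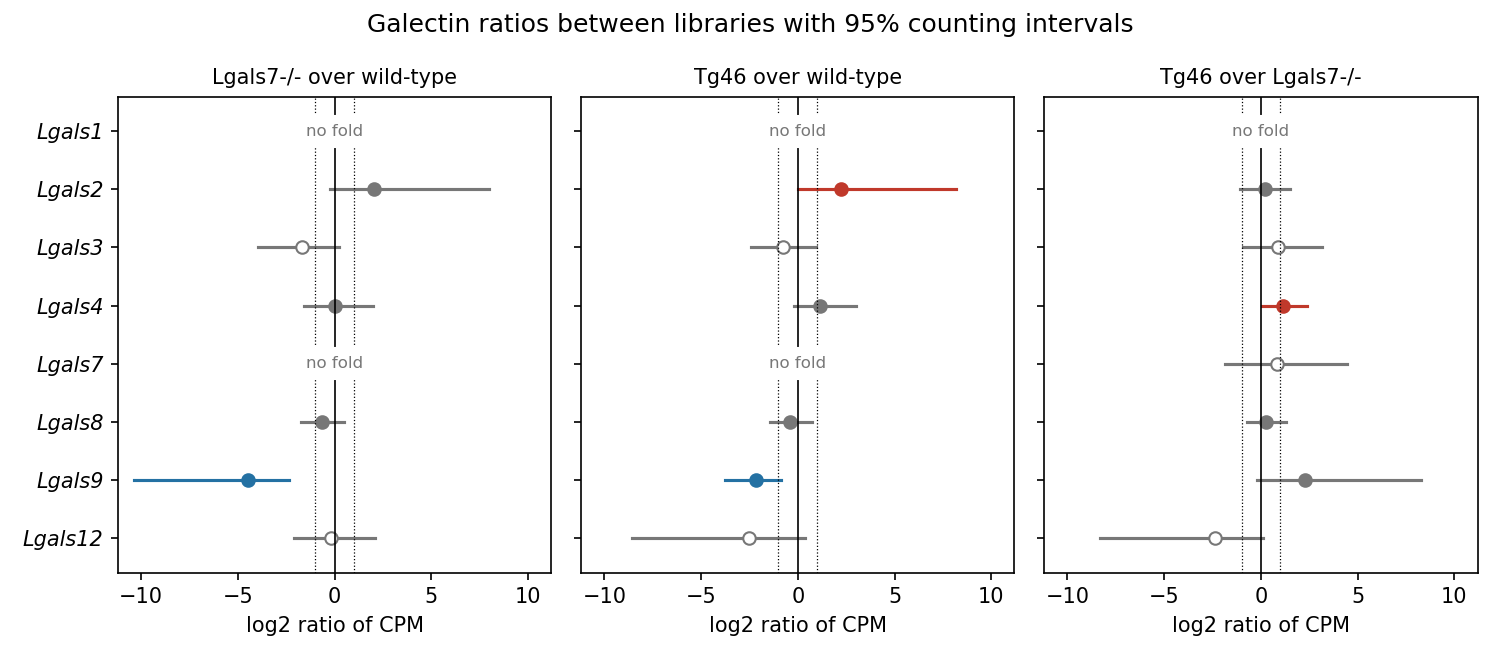
Log2 ratio of CPM (horizontal axis) between each pair of libraries for the 8 galectin genes, with exact 95% counting intervals as lines and 2-fold marked by dotted lines. Filled points are genes that reached 10 counts in some library, red is called higher, blue called lower, and "no fold" marks pairs with a library at 0 or both at or under 3 counts. Lgals9 lies below 0 in both comparisons with wild-type.

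The words called higher and called lower stand for a ratio of at least 2-fold with a 95% interval that excluded 1, among genes that reached 10 counts in some library. This filter was passed by 4 of the 8 galectins (Lgals2, Lgals4, Lgals8 and Lgals9) and by 12940 of all identifiers (53.9%), and a member that passed through 1 high library was thereby more likely to differ. Lgals9 passed through wild-type alone. For Lgals7-/- over wild-type, 0 galectins were called higher and 1 lower (Lgals9), where 13.3% of all genes tested were called higher and 13.7% lower, 26.9% in either direction. In Tg46 over wild-type, 1 was called higher (Lgals2) and 1 lower (Lgals9), against 13.7% and 13.9% of all genes, 27.5% in either direction. In Tg46 over Lgals7-/-, 1 was called higher (Lgals4) and 0 lower, against 8.43% and 7.73% of all genes, 16.2% in either direction. With 4 genes these counts cannot be read as a shift of the family. The median log2 ratio of the 4 was -0.33, 0.38 and 0.70 in the same order, beside 0.10, 0.11 and -0.03 over all genes tested, and over all 8 members it was -0.10, 0.12 and 0.55.

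The make-up of the family's counts does not depend on the scaling between libraries, and in it the share of Lgals9 was largest in wild-type. The sum of the galectin counts was 48 for wild-type, 54 for Lgals7-/- and 78 for Tg46, or 278 (205 to 368), 164 (123 to 214) and 233 (184 to 290) CPM with exact Poisson intervals. Lgals9 made up 35.4% of them in wild-type (exact Clopper-Pearson interval 22.2 to 50.5%), 1.85% in Lgals7-/- (0.0469 to 9.89%) and 8.97% in Tg46 (3.69 to 17.6%). The interval in wild-type overlapped neither of the others. These shares reuse the counts by which Lgals9 was picked out as the most different member, so they give no separate support. Lgals2 took 2.08% in wild-type (0.0527 to 11.1%), 20.4% in Lgals7-/- (10.6 to 33.5%) and 16.7% in Tg46 (9.18 to 26.8%), with intervals that overlapped. Lgals8 kept a similar share, 29.2%, 31.5% and 26.9%, with intervals that overlapped throughout. Lgals4 took 10.4% (3.47 to 22.7%), 18.5% (9.26 to 31.4%) and 29.5% (19.7 to 40.9%), again with overlap.

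**Figure D3:**
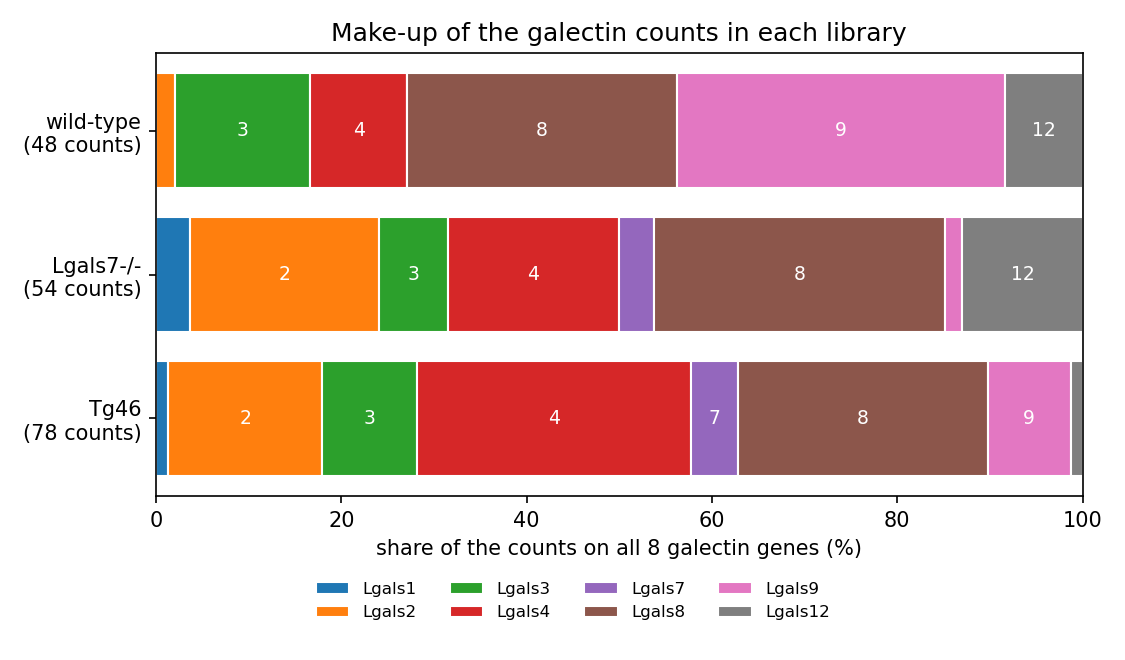
Share of the counts on all 8 galectin genes (horizontal axis, percent) that fell on each gene in the wild-type, Lgals7-/- and Tg46 libraries, as stacked bars labelled with the galectin's number where they exceed 5%. The Lgals9 segment is 35.4% in wild-type against 1.85% in Lgals7-/- and 8.97% in Tg46, while Lgals8 takes 26.9% to 31.5% in each library.

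Per kb of exon, the only scale on which these genes can be set against each other, the order changed from library to library. In wild-type, Lgals9 stood highest at 46.0 CPM per kb, followed by Lgals8 at 21.97 and Lgals3 at 21.8, and no neighbour in the order differed beyond counting error. In Lgals7-/-, Lgals2 led at 56.4 CPM per kb, above Lgals8 at 14.0 with a ratio whose interval ran from 1.71 to 9.12, and no later neighbours differed beyond counting error. In Tg46, Lgals2 led at 65.5 CPM per kb, above Lgals4 at 29.6 (interval of the ratio 1.03 to 4.55), with Lgals8 at 17.0, and no neighbours from Lgals4 downwards differed beyond counting error. Lgals2 has the shortest exon length of the members, 592 bases against 3688 for Lgals8, which raises its level per kb for a given count.

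In Lgals7-/- and Tg46 the galectins known from gut, Lgals2 and Lgals4, stood above Lgals1, Lgals3 and Lgals7. In wild-type, Lgals3 stood above both Lgals2 and Lgals4. The place of Lgals7 in Lgals7-/- is not informative, since that library is labelled as lacking galectin-7. The Poisson interval of Lgals2 overlapped none of those of Lgals1, Lgals3 and Lgals7 in Lgals7-/- or in Tg46, and that of Lgals4 overlapped all of them except Lgals1 in Tg46. In Tg46, Lgals2 exceeded 98.5% of protein-coding genes per kb of exon and Lgals4 95.004%, whereas Lgals7 exceeded 79.7%, Lgals3 79.6% and Lgals1 22.9%. In Lgals7-/-, Lgals2 exceeded 98.7%, Lgals4 79.3%, Lgals3 47.2% and Lgals1 48.5%. In wild-type, Lgals9 exceeded 97.4%, Lgals8 89.1% and Lgals3 89.0%, and Lgals1 and Lgals7 were at 0. As a gauge of sparse signal, 1492 olfactory, vomeronasal, taste and trace-amine receptor genes together stood at 3.25, 2.56 and 2.37 CPM per kb in wild-type, Lgals7-/- and Tg46, and at that level Lgals7 would hold 0.521, 0.781 and 0.736 counts and Lgals9 1.20, 1.80 and 1.70. The single count of Lgals9 in Lgals7-/- and the single count of Lgals12 in Tg46 (2.20 at that level) therefore lay under that gauge, while the 17 counts of Lgals9 in wild-type lay far above it. The origin of the receptor counts was not tested. Of the 8 members, 6 shared no run of 50 bases with any transcript of another gene on either strand. The exceptions were Lgals8 and Lgals12, with 2.8% and 0.426% of their runs shared on the opposite strand and 1.07% and 0.391% on the same strand.

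Likeness was measured for Lgals8, the member with most counts. In the plane of the log2 ratios of Lgals7-/- and Tg46 to wild-type, 331 of the genes tested lay within a distance of 0.25 of Lgals8 (-0.66 and -0.39), over 3 libraries. The nearest were Nrg1 at a distance of 0, Vax2os at 0.0208 and Polg at 0.0346. A distance of 0 means an equal pair of ratios, which small counts allow. The intervals of the Lgals8 ratios are far wider than these distances, so no shared profile can be read from them. Of the relatives of the family, Lgalsl, a galectin-like gene whose product lacks sugar binding, held 10, 15 and 13 counts in the order wild-type, Lgals7-/-, Tg46, with a Tg46 to wild-type ratio of 0.663 (0.271 to 1.71), and Grifin, a lens galectin relative, held 0, 1 and 0.

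The glycoproteins that galectins bind showed calls in both directions. Of 30 cell surface and matrix partners, 24 passed the filter. In Lgals7-/- over wild-type 1 was called higher and 3 lower, in Tg46 over wild-type 3 higher and 2 lower, and for Tg46 over Lgals7-/- the calls were 0 higher and 2 lower. Of all genes tested, 13.3% were called higher and 13.7% lower in Lgals7-/- over wild-type. The shares were 13.7% and 13.9% in Tg46 over wild-type, and 8.43% and 7.73% in Tg46 over Lgals7-/-. Those of the partners are near or under these. The median log2 ratios of the partners were 0.04, -0.18 and 0.19, beside 0.10, 0.11 and -0.03 over all genes tested. Spn, the T cell mucin CD43 to which galectin-1 binds, held 16 wild-type counts, 9 Lgals7-/- counts and 14 Tg46 counts and was called lower than wild-type in both, at ratios of 0.302 (0.115 to 0.710) and 0.453 (0.204 to 0.986). With TMM factors over all identifiers the call of Spn in Tg46 was lost. Mertk, a phagocytic receptor that galectin-3 can engage, held 16, 16 and 4 counts, and its ratio in Tg46 was 0.141 to wild-type (0.0314 to 0.400) and 0.268 to Lgals7-/- (0.0597 to 0.761). Cd44, the hyaluronan receptor, held 14, 38 and 15 counts, with a Tg46 to Lgals7-/- ratio of 0.395 (0.198 to 0.721).

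Integrin chains are bound by galectin-1, galectin-3 and galectin-8. Itga3 and Itgb1 were called higher only in Tg46 over wild-type, Itga6 lower only in Lgals7-/- over wild-type, and Itgb4 in no comparison. Itga3 held 3 wild-type counts, 16 Lgals7-/- counts and 23 Tg46 counts, a ratio of 3.46 in Tg46 to wild-type (1.19 to 20.6). Itgb1 held 6, 19 and 30 counts, a ratio of 2.42 (1.06 to 7.58). With 5 counts added both calls were lost, at 1.80 for Itga3 and 1.64 for Itgb1, and that of Itgb1 also with total counts. Itga6, by contrast, held 30, 24 and 37 counts and was called lower in Lgals7-/- at 0.422 of wild-type (0.235 to 0.743). Muc1, an epithelial mucin, held 0, 9 and 11 counts and was at least 1.57-fold higher in Lgals7-/- and at least 1.89-fold higher in Tg46, bounds against 3 counts in wild-type that lie under 2-fold. Both calls of Muc1 were lost with 5 counts added. Dsg2, a desmosomal cadherin whose exons overlap Gm16090 on the opposite strand, held 7, 3 and 10 counts, with a ratio of 0.245 in Lgals7-/- to wild-type (0.0375 to 0.985), a call lost with total counts and with TMM factors over all identifiers. Havcr2, the gene of the galectin-9 receptor TIM-3, held 2, 14 and 5 counts, and its ratio to wild-type was 3.04 in Lgals7-/- (0.844 to 33.3) and 1.13 in Tg46 (0.211 to 13.5), both within counting error. Cdh1, the E-cadherin that galectin-7 binds, held 17, 24 and 19 counts with ratios to wild-type of 0.735 (0.382 to 1.47) and 0.574 (0.284 to 1.18).

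Of 7 intracellular partners 4 passed the filter, with 0 called in Lgals7-/- over wild-type, 1 lower in Tg46 over wild-type (13.9% of all genes) and 1 higher in Tg46 over Lgals7-/- (8.43% of all genes). With 4 genes tested, 1 call is no departure from those shares. The first was Pdcd6ip (ALIX), a vesicle-sorting protein, with 16 counts in wild-type and 14 in Tg46, a ratio of 0.453 (0.204 to 0.986), and this call was also lost with TMM factors over all identifiers. The other was Gemin4, a splicing cofactor bound by galectin-1 and galectin-3, with 254 counts in Lgals7-/- and 536 in Tg46, a ratio of 2.07 (1.78 to 2.42). Exons of Gemin4 overlap those of Dbil5 and Fam57a on the opposite strand, and with total counts its call was lost. Bcl2, an apoptosis inhibitor whose exons overlap D630008O14Rik, held 6, 16 and 20 counts in the order wild-type, Lgals7-/-, Tg46, with ratios to wild-type of 1.33 (0.520 to 4.37) and 1.63 (0.666 to 5.23).

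Among the enzymes that build galectin ligands, the calls in Tg46 over wild-type were on the higher side alone. Of all genes tested, 13.7% were called higher there and 13.9% lower. With DESeq2 size factors or total counts, 1 enzyme was also called lower. Galectins bind N-acetyllactosamine (LacNAc), which is displayed on branched N-glycans that some of the Mgat and B4galt enzymes help to make. No glycan was measured, so a call of an enzyme gene gives no level of ligand. Of 30 branching and LacNAc enzymes 19 passed the filter, with 1 called higher and 1 lower in Lgals7-/- over wild-type, 4 higher and 0 lower in Tg46 over wild-type, and for Tg46 over Lgals7-/- the calls were 2 higher and 0 lower. Of all genes tested, 13.3% were called higher and 13.7% lower in Lgals7-/- over wild-type, and 8.43% and 7.73% in Tg46 over Lgals7-/-. With 19 genes these counts cannot be read as a shift of the group. The median log2 ratios were 0.45, 0.13 and -0.09, beside 0.10, 0.11 and -0.03 over all genes tested. Man2a1, whose exons overlap Gm17133, held 21 counts in wild-type and 21 in Tg46. Its ratio of 0.516 (0.268 to 0.992) fell just short of a 2-fold call. B4galt5, a galactosyltransferase, held 3 wild-type counts, 25 Lgals7-/- counts and 37 Tg46 counts, at ratios to wild-type of 3.82 (1.33 to 22.6) and 5.52 (2.01 to 32.2). Mgat4b, a branching enzyme, held 1, 6 and 17 counts, with a Tg46 ratio of 6.01 to wild-type (1.37 to 366) and of 2.64 to Lgals7-/- (1.05 to 8.62). B3gnt8, which extends LacNAc chains, held 19 counts in wild-type and 86 in Tg46, a ratio of 2.29 (1.41 to 4.06), and its exons overlap those of Bckdha. B4galt3, which overlaps Ppox, held 0 counts in wild-type and 10 in Tg46 and was at least 1.72-fold higher. With 5 counts added the calls of Mgat4b, B3gnt8 and B4galt3 and that of B4galt5 in Lgals7-/- were lost, and with total counts that of Mgat4b in Tg46 over Lgals7-/-.

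Gcnt2, which branches LacNAc chains, went the other way in Lgals7-/-. It held 25 wild-type counts, 9 Lgals7-/- counts and 29 Tg46 counts, a ratio of 0.196 in Lgals7-/- to wild-type (0.0776 to 0.418) and of 3.05 in Tg46 to Lgals7-/- (1.46 to 7.6003), with an opposite-strand overlap with A730081D07Rik and Gm31683. Mgat5, whose branched glycans are favoured galectin ligands and whose exons overlap Tmem163, held 8, 15 and 23 counts and was not called, with ratios to wild-type of 0.957 (0.392 to 2.68) and 1.43 (0.640 to 3.83).

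Of 11 genes of sialylation and of sialic acid or galactose removal 8 passed the filter, with 1 higher and 0 lower in each comparison with wild-type, and for Tg46 over Lgals7-/- the calls were 1 higher and 1 lower. Calls of 1 in 8 are near the shares of all genes, 13.3% and 13.7% higher over wild-type and, for Tg46 over Lgals7-/-, 8.43% higher and 7.73% lower. Their median log2 ratios were 0.62, 0.73 and 0.34, beside 0.10, 0.11 and -0.03 over all genes tested. St6gal1, whose alpha2,6-linked sialic acid blocks the binding of several galectins, held 1 wild-type count, 15 Lgals7-/- counts and 19 Tg46 counts, at ratios to wild-type of 5.42 (1.21 to 331) and 6.70 (1.56 to 407), the first lost with 5 counts added. Its exons overlap those of BC106179 on the opposite strand. St3gal6, with an overlap with Dcbld2, had a Tg46 to Lgals7-/- ratio of 2.95 (1.10 to 10.97), and Neu3, a sialidase, one of 0.461 (0.199 to 0.955). The call of St3gal6 was lost with total counts and that of Neu3 with 5 counts added.

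**Figure D4:**
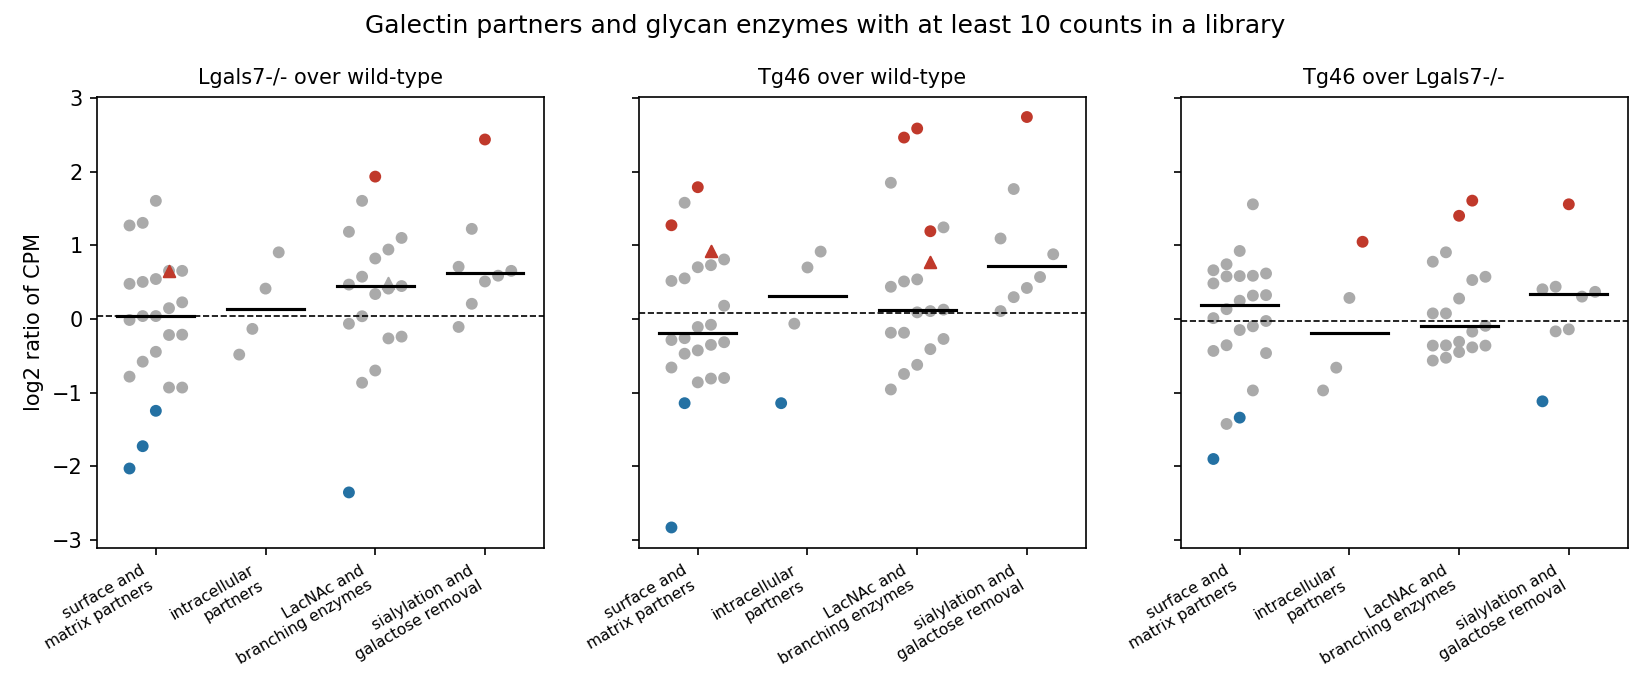
Log2 ratio of CPM (vertical axis) of the galectin partners and glycan enzymes that reached 10 counts in some library, by list, in the 3 comparisons. Red points are called higher and blue called lower, triangles are bounds for genes at 0 in wild-type, black bars are list medians and the dashed line is the median of all genes tested, with genes at 0 in a library at their bound. Called genes lie on both sides among the surface partners, and on the higher side alone among the LacNAc enzymes in Tg46 over wild-type. There 4 of 19 tested were called higher, beside 13.7% of all genes called higher and 13.9% lower. With DESeq2 size factors or total counts 1 was also called lower.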

How the data were processed

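Per the labels' protocols, papilloma RNA (a pool of 3 tumours for every genotype) was purified with TRIzol and RNeasy and sequenced from Illumina libraries. The authors deposited raw read counts by Entrez gene, on build mm10 per the submitters' processing notes. The sources used here do not give the aligner, counting tool, annotation or strand use. Symbols came from RefSeq (23968 of 24028 identifiers matched), positions and exon lengths from GENCODE M21 and promoter windows from RefSeq, all GRCm38.

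Scaling used TMM factors from edgeR 4.0.16 in R 4.3.3 (1.00, 1.05 and 0.945 in wild-type, Lgals7-/- and Tg46), computed on genes that reached 10 counts in some library, which were also the genes tested. Ratios were taken after adding 0.5 counts per library, with exact Clopper-Pearson 95% intervals from both counts. Against a library at 0, a fold is a bound against 3 counts per library. A quasi-likelihood test could not be fitted, since there are no replicates. The functions were tested on simulated data. Other settings tried were total counts, size factors from DESeq2 1.42.0, other filters, 5 counts added, fold alone and interval alone, and, chosen after seeing the data, TMM factors over all identifiers and leaving out genes with an opposite-strand exon. All galectins, their overlapping genes, the relatives and up to 4 called genes per list and comparison are named, with the flanking genes where described. Lgals3bp, Havcr2, Cdh1, Bcl2 and Mgat5 were named after their values were seen. The members and lists were chosen with earlier results of these data known. Ratios were computed in Python 3.11.15 with scipy 1.17.1.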

Additional observations from a re-analysis of the deposited data

How the results depend on the processing

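No paired analysis was possible because there was 1 library per genotype, and for the same reason no replicate could be left out. All 76 galectin ratios under other settings stayed within the counting interval first given. They cover the other scalings and 5 counts added, for pairs in which a fold could be given. The intervals are wide beside the shifts from scaling, so staying within them says little about stability. Of the counts of calls 256 stayed within 1.5 times and 68 did not. Where 3 counts are given, they stand for Lgals7-/- against wild-type, then Tg46 against wild-type and Tg46 against Lgals7-/-. Galectins called higher in Tg46 over wild-type were 0 with DESeq2 size factors, total counts, a filter of 20 counts, 5 counts added or no opposite-strand exon, and 2 by fold alone. Those called higher in Tg46 over Lgals7-/- were 0 with total counts or 5 counts added and 2 by fold alone, and 1 was higher in Lgals7-/- over wild-type by fold alone. With the filter of 20 counts Lgals9 was not tested, which left 0 galectins lower in both comparisons with wild-type.

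Over all genes, the filter of 20 counts gave 882, 1023 and 643 higher and 684, 659 and 453 lower, fewer genes being tested. Fold alone gave 3269, 3307 and 1808 higher and, in the last, 1653 lower, of 12940 genes tested in each. With 5 counts added 584 and 658 were higher over wild-type, and without opposite-strand exons 1071 were higher in Tg46 over wild-type and 593 in Tg46 over Lgals7-/-.

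For surface partners in Lgals7-/- over wild-type, 0 were higher with the filter of 20 or 5 counts added and 4 by fold alone, and 1 was lower with the filter of 20. In Tg46 over wild-type 0 were higher with 5 counts added, 0 lower with the filter of 20 and 1 lower with TMM over all identifiers. In Tg46 over Lgals7-/- 1 was higher by fold alone and 1 lower with the filter of 20. For intracellular partners in Tg46 over wild-type, 1 was higher by interval alone and with TMM over all identifiers, and 0 lower with the latter. In Tg46 over Lgals7-/- 0 were higher with total counts or no opposite-strand exon.

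For LacNAc enzymes in Lgals7-/- over wild-type, 0 were higher with 5 counts added and 5 by fold alone, 2 lower with no filter and 0 without opposite-strand exons. In Tg46 over wild-type 2 were higher with the filter of 20 or no opposite-strand exon and 1 with 5 counts added, and 1 was lower with DESeq2 size factors, total counts, no filter or interval alone. In Tg46 over Lgals7-/- 1 was higher with total counts, the filter of 20, 5 counts added or no opposite-strand exon. For sialylation genes, 0 were higher in all 3 comparisons with the filter of 20 or no opposite-strand exon. In Lgals7-/- over wild-type 0 were higher with 5 counts added and 2 by fold alone or TMM over all identifiers, and in Tg46 over wild-type 3 by fold alone and 2 with TMM over all identifiers. In Tg46 over Lgals7-/- 0 were higher with total counts and 0 lower with 5 counts added. Beyond genes left out by construction, the cause was not tested. The number called over all genes also changes with the setting, and with so few genes per list no count here can be read as a shift of its list.

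Total counts moved the log2 ratios of Tg46 over Lgals7-/- by -0.16, and TMM over all identifiers moved those over wild-type by 0.14 and 0.15. Depth is one limit: with 1 to 23 counts on any galectin detected, and none replicated, the intervals of 4 members under the filter held 1 wherever a fold could be given.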

Other observations

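Other genes with interferon motifs near their start were looked at after the Lgals9 window had been seen. They are the 21 tested genes with a window that held at least 2 matches to the interferon core, at any position and overlapping ones included, and Lgals9 is among them. Ifit1, Irgm1, Lgals9, Rab19, Rbm43 and Slc22a26 passed the filter of 10 counts through wild-type alone, where they had to be high. The counts of calls below therefore cannot be read as a shift of the group, and no test was run. Counts are in the order wild-type, Lgals7-/-, Tg46, and both ratios share the wild-type library. Ddx60, an antiviral helicase gene, held 24, 17 and 8 counts, at ratios to wild-type of 0.375 (0.188 to 0.722) and 0.179 (0.0667 to 0.395). Ifit1, an interferon-induced sensor of viral RNA, held 12, 5 and 8 counts, at 0.231 (0.0604 to 0.667) and 0.351 (0.122 to 0.914). Ifit3, another interferon-induced gene, held 3, 17 and 9 counts, and its ratio of 2.62 in Lgals7-/- had an interval of 0.860 to 15.8. Usp49, a deubiquitinase gene whose exons overlap Tomm6, held 30, 20 and 25 counts, at 0.353 (0.188 to 0.637) and 0.431 (0.242 to 0.756). Of the 10129 tested genes with a window, 13.2% were called higher and 13.7% lower in Lgals7-/- over wild-type. In Tg46 over wild-type these shares were 13.7% and 14%. Among the 354 with at least 1 match, 10.2% were called higher and 18.6% lower in Lgals7-/-, and 11.9% and 18.6% in Tg46. Over the 21 genes, Lgals9 included, 1 was called higher and 9 lower in Lgals7-/- over wild-type, and 3 higher and 8 lower in Tg46. Those called higher in Tg46 were Nyap1 at 6.015 (1.373 to 366.3), Parp4 at 3.515 (1.496 to 12.44) and Kcnab1 at 2.107 (1.404 to 3.353). In Lgals7-/- it was 9130024F11Rik, at 5.774 (1.781 to 61.49). Exons of Parp4, Kcnab1 and 9130024F11Rik overlap others on the opposite strand.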
